A study of Mus musculus with 10 samples.

Results

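Mtm1, Psg28, Ntmt1, Orly, Lamp5 and Nxph4 are 6 genes selected on their large signal differences between D257A and wild-type cochleae, with all 5 D257A arrays above all 5 wild-type (WT) arrays. They were 6 of 18193 genes named on the arrays and were read by 12 of 45037 probe sets, groups of short oligonucleotides designed against a transcript or a set of similar ones. Every probe set with a member's symbol is described, whether or not it took part in the selection. Because the contrast chose the genes, their differences between the groups are given as a description with no test.

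RNA came from cochleae, the hearing organ of the inner ear, of male mice aged 9 months. The D257A group (PolgD257A, n = 5 arrays) carried the D257A form of Polg, the polymerase that copies mitochondrial DNA; this form lacks proofreading, and copying errors build up in the mitochondrial genome. The WT group (Polg+/+, n = 5 arrays) carried the normal gene, and all samples of both groups came from males kept on the same diet in a pathogen-free facility. The study set the groups against each other to find cochlear genes that respond to such mutations. Total RNA of whole cochlea tissue was labelled with biotin and hybridised to 1-colour Affymetrix arrays. The labels number the samples within each group without saying outright that each is a separate animal, and the design text states that no replicates were done, so p-values measure the spread between these samples, which may be technical. In tissue RNA, fewer cells of a type and less RNA per cell cannot be told apart.

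The 6 genes have unrelated textbook roles. Mtm1 encodes myotubularin, a lipid phosphatase that removes the 3-phosphate from phosphoinositides on endosomes and is needed for the membrane triads of skeletal muscle. Lamp5 encodes a member of the lysosome-associated membrane protein family that is found mainly in neurons, and Psg28 encodes a secreted pregnancy-specific glycoprotein of the family made by placental trophoblast. Ntmt1 encodes an enzyme that methylates the amino terminus of proteins such as RCC1 and SET. Nxph4 encodes a neurexophilin, a secreted ligand of the synaptic receptor alpha-neurexin. Orly is a noncoding transcript of the mouse Y chromosome from a repeated, testis-expressed locus.

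The genes lie on 5 chromosomes, with Mtm1 on X, Psg28 on 7, Ntmt1 and Lamp5 on 2, Orly on Y and Nxph4 on 10. RefSeq promoter windows (GRCm38.p6) were at hand for 5 of the 6. The 250 bases before the first listed start are shown for the 4 genes whose signals moved together from array to array, so that their upstream sequences can be set side by side. Capitals mark matches to the motifs searched.
Mtm1, chrX:71210517-71210766, plus strand: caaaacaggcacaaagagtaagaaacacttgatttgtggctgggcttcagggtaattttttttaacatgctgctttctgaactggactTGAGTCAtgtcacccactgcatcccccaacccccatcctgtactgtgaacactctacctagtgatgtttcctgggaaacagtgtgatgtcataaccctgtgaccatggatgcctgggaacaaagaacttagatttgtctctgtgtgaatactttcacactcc
Psg28, chr7:18432056-18432305, minus strand: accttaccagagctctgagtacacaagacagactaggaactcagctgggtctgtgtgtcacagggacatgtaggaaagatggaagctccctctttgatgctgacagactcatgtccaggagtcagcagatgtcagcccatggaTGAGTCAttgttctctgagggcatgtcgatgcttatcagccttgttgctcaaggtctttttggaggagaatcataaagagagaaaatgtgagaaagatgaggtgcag
Ntmt1, chr2:30807718-30807967, plus strand: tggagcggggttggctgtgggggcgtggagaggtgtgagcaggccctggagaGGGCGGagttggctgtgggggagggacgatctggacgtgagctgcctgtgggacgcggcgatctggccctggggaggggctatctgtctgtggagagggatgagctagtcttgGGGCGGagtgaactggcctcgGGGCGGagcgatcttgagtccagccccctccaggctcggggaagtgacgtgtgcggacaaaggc
Orly, chrY:78575410-78575659, minus strand: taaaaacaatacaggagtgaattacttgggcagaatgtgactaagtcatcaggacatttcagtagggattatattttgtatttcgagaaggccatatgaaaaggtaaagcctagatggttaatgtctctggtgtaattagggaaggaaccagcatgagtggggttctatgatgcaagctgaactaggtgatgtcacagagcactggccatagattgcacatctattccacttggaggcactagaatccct
The motifs searched on both strands were the TATA box (TATAAA), the CCAAT box, the GC box (GGGCGG), the E box (CACGTG), the CRE (TGACGTCA), the AP-1 motif (TGANTCA) and the NRF1 core (GCATGCGC). Each full window runs 50 bases past the start. Those of Mtm1 and Psg28 shown here each held the AP-1 letters, at -162 and -107 bases from the start, a motif found in 7.81% of the 32851 windows of this length. The Ntmt1 window shown held the GC box at -198, -85 and -64, against 35.7% of all windows with at least 1. The Orly window held none of the letters searched. The shown windows also differed in base composition: GC content was 67.7% with 19 CpG dinucleotides for Ntmt1, against 43.0% with 0 for Mtm1, 49.0% with 2 for Psg28 and 43.0% with 1 for Orly, beside medians of 52.7% and 7 over all windows. Mtm1 has further listed starts about 4 kb downstream whose windows had 14 and 17 CpG and held no AP-1 letters, but 4 GC boxes each, a CCAAT box and an E box. The AP-1 letters thus stood in 1 of 3 listed Mtm1 windows. Ntmt1 has another listed start, whose window had 21 CpG and held no GC box, but an E box 4 bases past that start. These matches describe letters in the windows and say nothing of binding.

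Mtm1 was the brightest of the 6, with signals of 15377.8, 24746.2, 19081.9, 11018.8 and 19278.9 on D257A arrays 1 to 5, against 2719.3, 3249.9, 6334.9, 5033.7 and 3219.7 on WT arrays 1 to 5 (probe set 1434278_at). All D257A arrays stood clear of the WT arrays, of which replicate 3 was the highest. The mean signal was 17901 ± 5096 in D257A and 4111.5 ± 1522 in WT cochleae (SD, n = 5 each), a difference of 2.14 ± 0.26 (SE) in log2(signal + 16), or 4.41-fold. Over the whole arrays, D257A stood wholly above WT in 2.86% of probe sets, and since the 6 genes were picked for that, nothing is read from their count of 6.

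The other Mtm1 probe sets differed in how far they showed it. Probe set 1454904_at read 3532.3, 4509.4, 4122.4, 2981.9 and 5105.1 on the D257A arrays, against 908.4, 1057.7, 1866.6, 1209.0 and 1397.9 on the WT arrays, a log2 difference of 1.66 ± 0.21 (SE). Its groups did not overlap either. Probe set 1416934_at read 913.0, 1036.9, 939.1, 840.9 and 1095.3 on the D257A arrays, against 701.8, 942.3, 1372.3, 930.2 and 687.8 on the WT arrays, a log2 difference of 0.10 ± 0.22 (SE). There the groups overlapped, and D257A was the higher in 15 of the 25 pairs of a D257A and a WT array. The large Mtm1 difference was thus a property of 2 of its 3 probe sets, and these 2 share a source record in the platform annotation.

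Ntmt1 showed the same split. Probe set 1456340_at, the brighter, read 3226.4, 4877.6, 4882.3, 1816.6 and 4665.0 on D257A arrays 1 to 5, against 323.5, 696.7, 1814.4, 1262.9 and 674.3 on the WT arrays. D257A replicate 4 lay far below the other D257A arrays and level with WT replicate 3, so the groups touched without overlapping. The mean was 3893.6 ± 1351 in D257A and 954.4 ± 586.9 in WT cochleae (SD, n = 5 each), a log2 difference of 2.15 ± 0.41 (SE) or 4.43-fold. Probe set 1451278_a_at read 1214.3, 258.0, 1039.9, 1831.1 and 1845.8 on the D257A arrays, against 1326.8, 1515.6, 261.5, 892.6 and 1360.1 on the WT arrays, with a log2 difference of 0.16 ± 0.55 (SE). The lowest D257A array here was replicate 2 and the lowest WT array replicate 3, both among the highest of their groups by the brighter probe set.

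By each gene's brightest probe set, Lamp5 had the largest difference of the 6. Its signal was 2170.4, 1430.7, 1876.5, 2432.4 and 1205.6 on D257A arrays 1 to 5, against 258.9, 260.3, 476.7, 237.6 and 186.9 on the WT arrays (1423853_at). The lowest D257A array was 2.53 times the highest WT array, the widest gap of the 12 probe sets. The mean was 1823.1 ± 507.4 in D257A and 284.1 ± 111.7 in WT cochleae (SD, n = 5 each), a log2 difference of 2.64 ± 0.28 (SE) or 6.22-fold. Its WT mean lay below 577, the mean signal at the edge of the brightness filter, so how far the WT level stood above background was not shown, and the same held for Nxph4.

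Psg28 differed in spread as well as in level. Its signal was 3586.5, 3808.7, 4160.9, 3510.5 and 3789.6 on D257A arrays 1 to 5, against 458.4, 343.0, 2361.3, 1764.2 and 504.9 on the WT arrays (1425881_at). The D257A arrays were nearly level, with the highest 1.19 times the lowest, whereas WT replicates 3 and 4 stood apart from the other WT arrays and the WT highest was 6.88 times the WT lowest. WT replicates 1, 2 and 5 lay below 577, the edge of the brightness filter, so how far they stood above background was not shown. The mean was 3771.2 ± 252.8 in D257A and 1086.4 ± 917.9 in WT cochleae (SD, n = 5 each), a log2 difference of 2.20 ± 0.45 (SE) or 4.60-fold. Psg28 is 1 of a family of closely similar genes, and which copies this probe set reads was not tested.

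Nxph4 read 1219.3, 1422.0, 1794.3, 1426.5 and 1931.2 on D257A arrays 1 to 5, against 166.3, 685.7, 472.6, 380.8 and 1024.7 on the WT arrays (1429753_at). The groups did not overlap, but the lowest D257A array was only 1.19 times the highest WT array, here replicate 5. The mean was 1558.7 ± 293.9 in D257A and 546.0 ± 326.2 in WT cochleae (SD, n = 5 each), a log2 difference of 1.69 ± 0.38 (SE) or 3.23-fold.

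Orly was read by 4 probe sets, all with positive differences. In the platform annotation 1433016_s_at shares a source record with 1454437_at, and 1433282_at shares another with 1433283_s_at. The brightest, 1433016_s_at, read 1578.1, 2267.9, 2042.9, 1523.6 and 2431.9 on D257A arrays 1 to 5, against 533.0, 481.2, 1194.3, 841.6 and 526.0 on the WT arrays. The groups were apart, with means of 1968.9 ± 406.3 in D257A and 715.2 ± 303.8 in WT cochleae (SD, n = 5 each), and the log2 difference was 1.50 ± 0.26 (SE) or 2.84-fold. Probe set 1433283_s_at gave 2.11 ± 0.39 (SE), with 1276.9, 3100.2, 1990.3, 1935.6 and 2378.4 on the D257A arrays, against 239.3, 268.9, 797.2, 1078.8 and 373.0 on the WT arrays. The WT mean of 1433283_s_at, 551.4, lay below 577, the edge of the brightness filter. The other two were too dim to pass the filter: 1454437_at read 780.1 to 3408.3 on D257A arrays, against 37.8 to 523.4 on WT arrays, with separate groups and the largest log2 difference of the 12 probe sets, 3.21 ± 0.56 (SE). Probe set 1433282_at read 47.2 to 191.3 on D257A arrays, against 1.5 to 70.4 on WT arrays, a log2 difference of 1.96 ± 0.55 (SE) with overlapping groups. The suffix _s marks probes that more than 1 transcript can share, and the locus has several copies, so the copies cannot be told apart.

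**Figure D1:**
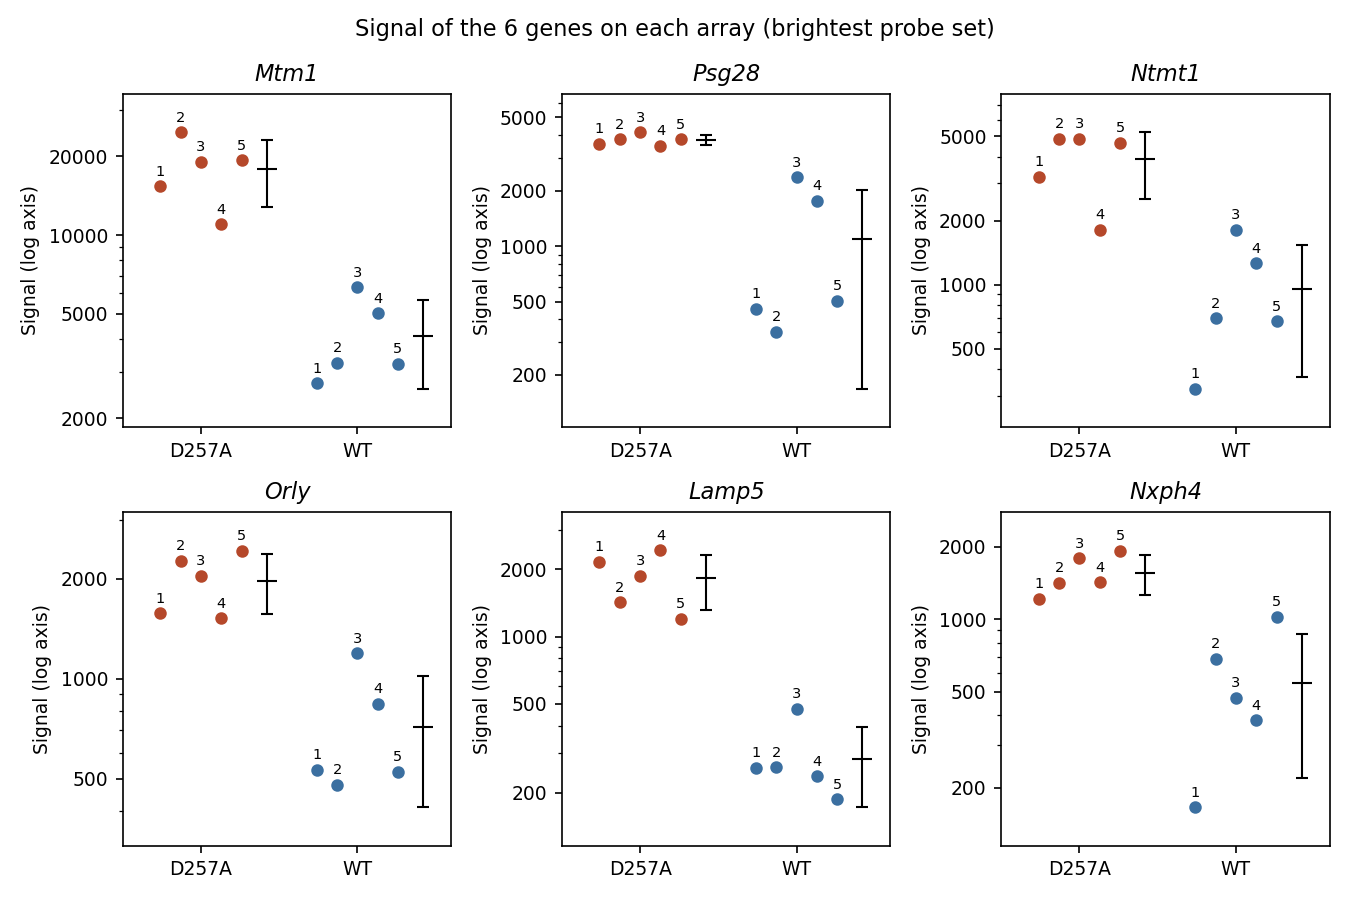
Signal of each gene on each array (log axes, brightest probe set), with D257A arrays left of WT arrays, the replicate number above each point, and the mean ± SD of 5 arrays at the right of each group. The groups are apart in every panel, most widely for Lamp5 and least for Ntmt1, where D257A replicate 4 (1816.6) meets WT replicate 3 (1814.4).

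Of the 12 probe sets, 9 had all D257A arrays above all WT arrays, 12 had a positive difference and 10 passed the brightness filter. Over all probe sets 2.86% had D257A wholly above WT. Among tested genes, each by its brightest probe set, 47.1% had a positive difference. That share leaves out dim probe sets, and with no filter the median log2 difference over all 45037 probe sets was 0.09. The ranking of rises among called genes with separate groups follows the rule that gave the 6 genes, so their places are no result. In it Lamp5 took place 2 behind Saa3 (log2 difference 2.99), and Psg28, Ntmt1 and Mtm1 came next. At the bottom edge Orly, in place 12 with 1.50, stood just above Gm3715, in place 13 with 1.48. Between the members ranked Cbln4 (1.98), Ifit1bl2 (1.64), Fpr2 (1.55), Rbfox2 (1.52) and Ccrl2 (1.52).

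**Figure D2:**
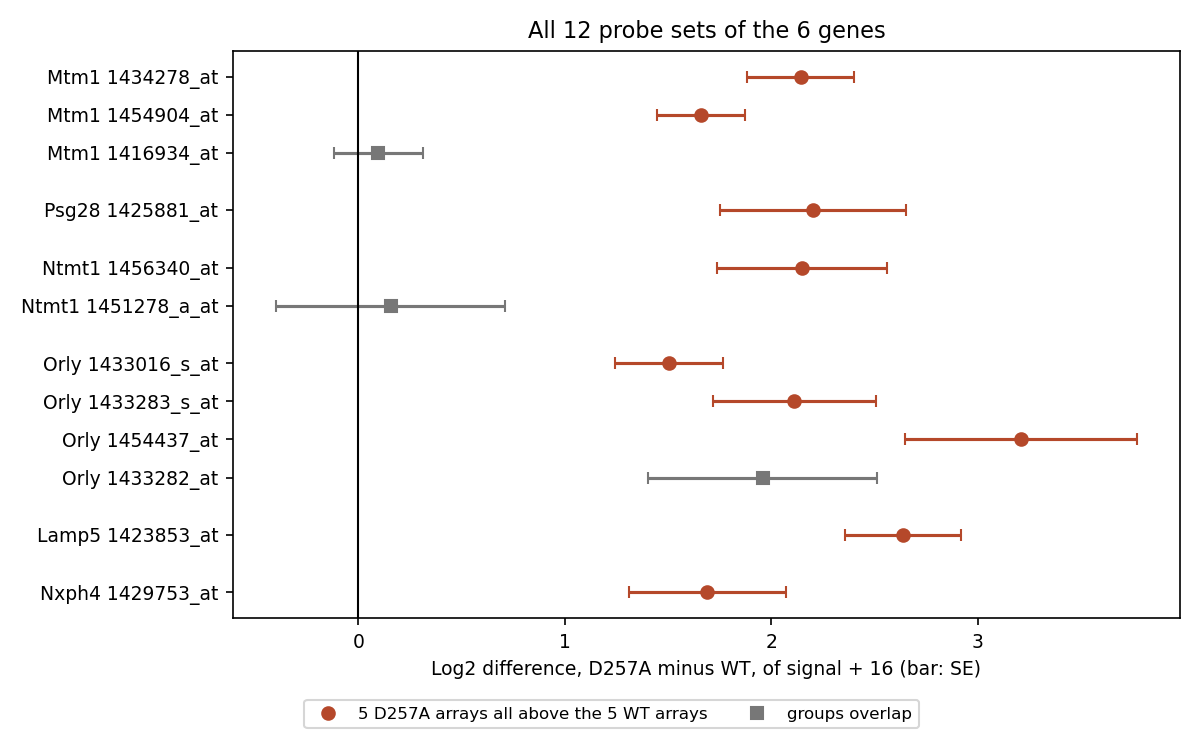
Log2 difference (D257A minus WT, of signal + 16) with its SE for the 12 probe sets, circles where the groups are apart and squares where they overlap. Mtm1 1416934_at (0.10) and Ntmt1 1451278_a_at (0.16) sit near 0, while other probe sets of the same genes sit at 1.66 to 2.15.

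The arrays that were high or low within their own group were largely shared between the genes. WT replicate 3 was the highest WT array for 5 of the 6 genes, all but Nxph4, and D257A replicate 4 was the lowest D257A array for Mtm1, Psg28, Ntmt1 and Orly but the highest for Lamp5. To measure this without the contrast that chose the genes, each group's mean was taken off the log2 signals and the 15 pairs of genes were correlated over the 10 arrays, with arrays permuted within groups and Benjamini-Hochberg adjustment over the 15 pairs.

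Mtm1, Psg28, Ntmt1 and Orly varied together within the groups, and no relation of Lamp5 or Nxph4 to them passed over the 2 groups together. Mtm1 and Ntmt1 had Pearson r = 0.947 (permutation p = 0.000350, adjusted 0.00525) and Spearman rho = 0.927 (permutation p = 0.00214, adjusted 0.0264). Without the arrays farthest from the median, D257A 4 and WT 3, r was 0.900. Mtm1 and Orly had r = 0.905 (permutation p = 0.00240, adjusted 0.0120) and rho = 0.842 (permutation p = 0.00807, adjusted 0.0329), and r = 0.885 without the same arrays.

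Psg28 and Orly had r = 0.876 (permutation p = 0.00153, adjusted 0.0115) and rho = 0.879 (permutation p = 0.0111, adjusted 0.0334), and r = 0.715 without WT 2 and WT 3. Ntmt1 and Orly had r = 0.849 (permutation p = 0.00379, adjusted 0.0142), but rho = 0.794 missed the threshold (permutation p = 0.0304, adjusted 0.0759); r was 0.973 without D257A 4 and WT 1. Mtm1 and Psg28 had r = 0.751 (permutation p = 0.0116, adjusted 0.0349) and rho = 0.830 (permutation p = 0.00878, adjusted 0.0329), and r = 0.765 without D257A 4 and WT 3. Psg28 and Ntmt1 had r = 0.741, which missed the threshold (permutation p = 0.0314, adjusted 0.0786), although rho = 0.915 passed (permutation p = 0.00352, adjusted 0.0264); r was 0.712 without WT 2 and WT 3.

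The count of correlated pairs depended on single arrays. Of the 5 pairs that passed by r, 3 passed without D257A 4, 1 without WT 3, 1 without WT 4, and 3 each without WT 1 or WT 5, and 0 passed when D257A 2 and WT 3 were both left out, where 8 arrays remained. Mtm1 and Ntmt1 passed whichever of the 10 arrays was dropped, with adjusted p from 0.00375 to 0.0310. For Psg28 the WT arrays fall into separate sets, replicates 3 and 4 against 1, 2 and 5, and with 5 arrays a group its correlations could not be tested within these sets. Its D257A arrays were nearly level (log2 SD 0.095, against 1.23 in WT), so its r over 10 arrays rests mostly on the WT arrays. Among the D257A arrays alone, too few to test, its r was 0.649 with Mtm1, 0.787 with Ntmt1 and 0.633 with Orly. D257A 2 and WT 3 also had the lowest mean correlation of log2 signals with the other arrays of their group, 0.839 for D257A 2 and 0.876 for WT 3, against 0.878 to 0.939 for the other arrays; the part of this in the shared order of the genes was not tested.

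None of the 9 pairs with Lamp5 or Nxph4 passed by either measure, and their r over both groups ranged from -0.28 to 0.44. For Lamp5 this value joins opposite signs: its r with each of Mtm1, Psg28, Ntmt1 and Orly was negative among the D257A arrays, where replicate 4 was its highest, and positive among the WT arrays, where replicate 3 was its highest. Nxph4 also changed sign with Psg28 (r = 0.655 in D257A, -0.118 in WT) and Orly (0.712 in D257A, -0.121 in WT), but not with Mtm1 or Ntmt1. These differences between the groups were not tested, and 5 arrays a group are too few for an r of their own. A value near 0 here thus does not show that Lamp5 or Nxph4 was unrelated to the other genes. The lowest was between Lamp5 and Nxph4, at -0.28 (permutation p = 0.502, rho -0.26 with permutation p = 0.492). With 10 arrays, a moderate relation would not be detectable.

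**Figure D3:**
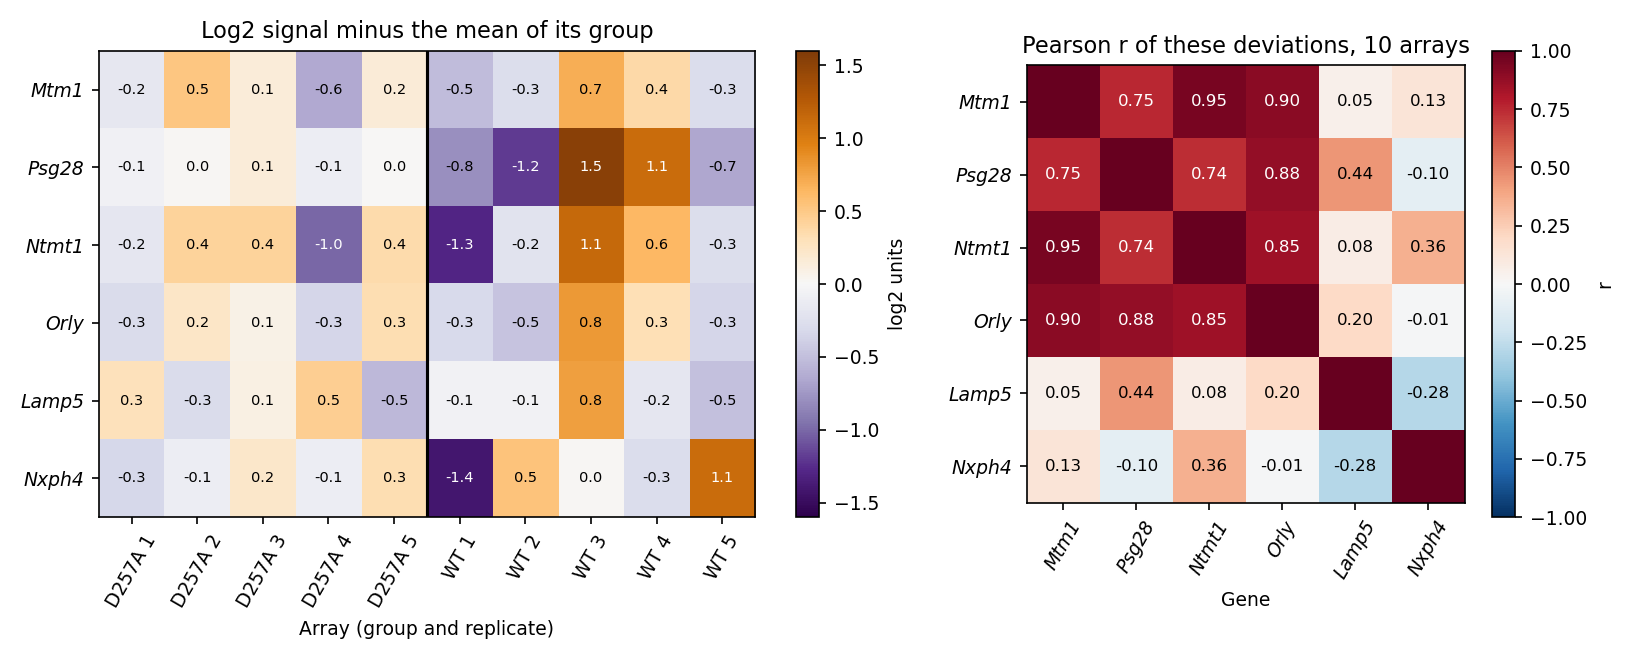
Left, the deviation of each gene from its group mean (log2 units) on the D257A arrays and then the WT arrays; right, Pearson r of these deviations over 10 arrays. Mtm1, Psg28, Ntmt1 and Orly form a block of r from 0.74 to 0.95 and are all high on WT 3, while the r of Lamp5 and Nxph4 lie between -0.28 and 0.44. The r of Lamp5 with the genes of the block, and of Nxph4 with Psg28 and Orly, had opposite signs in the groups.

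Probe sets of the same gene were compared in the same way, in a check added after their values had been seen (10 pairs, adjusted over these). The 3 Mtm1 pairs had r = 0.712 to 0.820 and the 6 Orly pairs r = 0.758 to 0.938, and all 9 passed by r, with 3 passing by rho. Some of these probe sets share a source record, so the pairs are not independent. Mtm1 1416934_at, which showed no separation of the groups, still varied with 1434278_at within them (r = 0.808, permutation p = 0.00624, adjusted 0.0208). The 2 Ntmt1 probe sets went opposite ways, with r = -0.642 (permutation p = 0.0506, adjusted 0.0506) and rho = -0.661 (permutation p = 0.0386, adjusted 0.0509), neither past the threshold after adjustment. When each gene was taken as the mean over its probe sets, 0 of the 15 pairs of genes passed, r of Mtm1 and Ntmt1 was -0.06, and the log2 differences were 1.3 for Mtm1 and 1.15 for Ntmt1.

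The genes whose within-group pattern was most like each member were ranked by the same r over 11870 tested genes and 10 arrays, as a description. Nearest to Mtm1 were Ankrd17, Gsta2, a glutathione transferase, and Cdkn1b, a cell cycle inhibitor, each at r = 0.972. Cdkn1b was also nearest to Ntmt1 (0.973), before Cpeb4 (0.964), which controls messenger RNA polyadenylation, and the autophagy protease Atg4c (0.952). Psg28 had Zfp804a (0.970), Tnfrsf11b (0.961), the decoy receptor osteoprotegerin, and Ago2 (0.916), the small-RNA effector.

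Nearest to Orly were Rbp7 (0.963), Cobll1 (0.957) and Tmem116 (0.955). Lamp5 had Snap91 (0.917), a clathrin assembly protein of synapses, Tmeff1 (0.904) and Plekha1 (0.901). Nxph4 had Camk2b (0.970), a neuronal calcium-dependent kinase, Slc9a5 (0.966), a sodium-proton exchanger, and Car4 (0.954), a carbonic anhydrase. Of these 17 genes 0 were called by limma and 3 had an unadjusted p under 0.05, with log2 differences from -1.45 to 0.34. The members were chosen for large differences, so theirs are not set against these.

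High correlation with Mtm1 was common on these arrays: 3.09% of the genes had r over 0.8 with it, against 2.20% for Orly, 1.47% for Ntmt1, 0.800% for Nxph4, 0.691% for Psg28 and 0.320% for Lamp5. Among the genes nearest to Mtm1, Ntmt1 ranked place 8, Orly 47, Psg28 616, Nxph4 5599 and Lamp5 6190. Of the 95 genes past 0.8 with Nxph4, 11 were called lower in D257A and 0 higher, whereas 7 of 367 were called higher and 2 lower for Mtm1, 6 of 261 higher and 0 lower for Orly, 4 of 174 higher and 0 lower for Ntmt1, 2 of 82 higher and 0 lower for Psg28, and 0 of 38 either way for Lamp5. Over all tested genes the shares were 0.657% higher and 1.66% lower, and these counts were not tested. All these genes share the arrays and their scaling.

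The pathways around the 6 genes were read from 9 lists of other genes, written from textbook knowledge with earlier results of these data known, the rise of Cbln4 included. Of 76 tested genes 1 was called higher and 2 lower in D257A (limma, Benjamini-Hochberg over all tested probe sets), and 17 (22.4%) had an unadjusted p under 0.05. Over all 11871 tested genes, 0.657% were called higher, 1.66% were called lower and 16.7% had an unadjusted p under 0.05, the share against which the counts of unadjusted p in each list below are to be read. The median log2 difference was 0.00 over the 76 genes and -0.02 over all tested genes.

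Around Mtm1, 13 other myotubularins were tested. Of these, 0 were called and 2 had an unadjusted p under 0.05, with a median log2 difference of 0.01. Mtmr1, the closest relative of Mtm1, read 1143.9 ± 248.7 in D257A and 1763.4 ± 363.4 in WT cochleae (SD, n = 5 each), a log2 difference of -0.63 (limma adjusted p = 0.140). Its groups did not overlap, with 739.8 to 1398.9 in D257A, against 1482.7 to 2366.1 in WT cochleae. Mtmr12, a catalytically inactive partner, gave -0.44 (limma adjusted p = 0.245). Of 8 kinases and partners that make endosomal phosphoinositides, 0 were called and 0 had an unadjusted p under 0.05, with a median of 0.04. Pik3r4, a subunit of the endosomal lipid kinase complex, gave 0.30 (limma adjusted p = 0.317), and Atg14, its autophagy subunit, -0.30 (limma adjusted p = 0.428).

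Of 6 muscle membrane partners of Mtm1, 1 was called lower, 4 had an unadjusted p under 0.05 and the median was -1.66. Speg, a striated muscle kinase that binds myotubularin, fell to 2245.2 ± 727.5 in D257A, against 4230.5 ± 653.5 in WT cochleae (SD, n = 5 each; log2 difference -0.95 ± 0.22 SE, limma adjusted p = 0.0419). Its other tested probe sets, 2 of 3, had the opposite sign, and dropping single arrays removed the call in 7 of 10 cases, the limma adjusted p reaching 0.116 without WT 5. With the mean over its probe sets the log2 difference was -0.18 (limma adjusted p = 0.579), and quantile normalization also ended the call (limma adjusted p = 0.0532). Ttn, the giant sarcomere protein, gave -2.83 and missed the threshold (limma adjusted p = 0.0593). It passed in 2 of 10 fits with 1 array left out, where the limma adjusted p ran from 0.0206 to 0.137. Among 11 other settings it passed in 3 and missed in 8. The 3 were median centring (limma adjusted p = 0.0461), array weights (0.00326) and leaving out both D257A 2 and WT 3 (0.0142). Skeletal muscle markers moved with this list: 7 of 12 were called lower and 0 higher, and their summed signal was 9880.5 to 263346 in D257A, against 167929 to 506372 in WT cochleae. The part of muscle tissue in these values and in those of Mtm1 was not tested.

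Around Lamp5, 0 of 12 tested genes of the LAMP family and lysosomal membrane were called and 1 had an unadjusted p under 0.05, with a median of -0.03. Lamp1, the abundant lysosomal membrane protein, gave 0.21 (limma adjusted p = 0.472), and Laptm5, a lysosomal protein of blood cells, 0.47 (limma adjusted p = 0.232).

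Around Psg28, 17 pregnancy-specific glycoproteins and related CEACAM adhesion proteins were on the arrays and 13 of them were too dim to be tested. Of the other 4, 0 were called and 2 had an unadjusted p under 0.05, with a median of 0.18. Psg23 averaged 1467.7 ± 342.7 in D257A and 979.7 ± 302.8 in WT cochleae (SD, n = 5 each; log2 difference 0.61, limma adjusted p = 0.225), and Ceacam1 gave -0.46 (limma adjusted p = 0.196). Of 3 placental trophoblast markers on the arrays 0 passed the filter, and their summed signal was 167.8 to 448.3 in D257A, against 157.5 to 372.2 in WT cochleae.

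Around Ntmt1, 6 tested genes of amino-terminal methylation, mostly its substrates, had 0 calls and 2 unadjusted p under 0.05, with a median of 0.22. Cenpa, the centromeric histone, gave 0.54 (limma adjusted p = 0.148), and Ddb2, a DNA damage sensor, -0.55 (limma adjusted p = 0.189). Of 11 other protein methyltransferases 0 were called and 3 had an unadjusted p under 0.05, with a median of -0.02. Prmt8, the arginine methyltransferase of neurons, gave -0.75 (limma adjusted p = 0.202), and Pcmt1, which repairs damaged aspartates, 0.58 (limma adjusted p = 0.180).

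Around Nxph4, 13 tested neurexophilins, neurexins and neurexin ligands held 1 gene called higher and 1 called lower, with 3 unadjusted p under 0.05 and a median of -0.39. Cbln4, a cerebellin that bridges neurexins to postsynaptic receptors, rose to 1654.6 ± 320.7 in D257A, against 418.1 ± 139.1 in WT cochleae (SD, n = 5 each). The log2 difference was 1.98 ± 0.23 (SE, limma adjusted p = 0.00185). Its WT mean lay below 577, the edge of the brightness filter, so Cbln4 was tested only through its D257A signal. With no filter its limma adjusted p was 0.00243. Nlgn2, the neuroligin of inhibitory synapses, fell to 3857.8 ± 620.7 in D257A, against 7071.5 ± 1454 in WT cochleae (SD, n = 5 each; log2 difference -0.86 ± 0.19 SE, limma adjusted p = 0.0331). A dimmer Nlgn2 probe set had the opposite sign, and dropping single arrays removed the call in 8 of 10 cases, the limma adjusted p reaching 0.0990 without WT 2. With the mean over its probe sets the log2 difference was -0.24 (limma adjusted p = 0.439), and without both D257A 2 and WT 3 the call was also lost (limma adjusted p = 0.0687).

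Of 13 neuronal markers tested beside Lamp5 and Nxph4, 0 were called, 2 had an unadjusted p under 0.05 (limma) and 7 had a positive difference. The 2 were Syt1 (log2 difference -0.69, limma adjusted p = 0.0543) and Gad1 (-2.10, limma adjusted p = 0.124), both lower in D257A. The groups did not overlap for Syt1, with 6462.8 to 8562.3 in D257A, against 8667.2 to 14466.7 in WT cochleae. The summed signal of the neuronal markers was 188042 to 257222 in D257A, against 202534 to 259278 in WT cochleae. Of 9 cerebellar markers, 2 were called lower and 0 higher, and 5 had an unadjusted p under 0.05 (limma), with a median log2 difference of -1.69. Their sums were 26151 to 34712 in D257A, against 14103 on WT 1 and 55106 to 113830 on the other WT arrays. WT 1 was also the lowest WT array for Nxph4, but not for Lamp5. The part of other neural tissue in the 2 genes was not tested.

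Beside Orly, 3 of 7 Y chromosome genes on the arrays passed the filter, with 0 calls, 0 unadjusted p under 0.05 and a median of -0.26. Kdm5d, a histone demethylase, gave -0.29 (limma adjusted p = 0.437), and Eif2s3y, a translation factor subunit, -0.26 (limma adjusted p = 0.583). Of 6 spermatid markers 0 passed the filter, with summed signals of 1094.4 to 2427.1 in D257A and 831.2 to 1518.9 in WT cochleae.

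**Figure D4:**
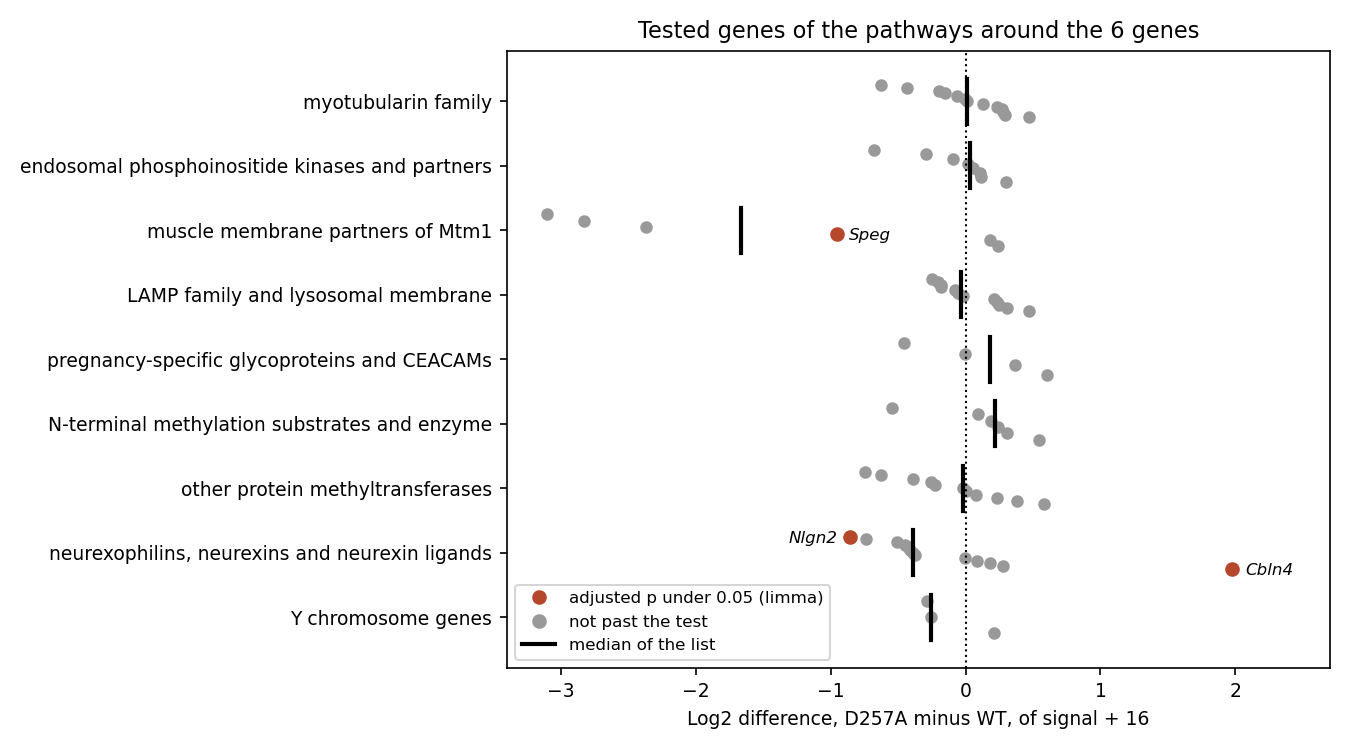
Log2 difference (D257A minus WT) of every tested gene of the 9 lists, 1 point per gene, with the list median as a bar. Cbln4 (1.98) is the gene called higher, Speg (-0.95) and Nlgn2 (-0.86) are called lower, and the muscle partners have the lowest median (-1.66).

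The tissue was checked against its own markers. Of 15 cochlear markers 12 passed the filter, and Tecta, Strc and Slc26a5, genes of the tectorial membrane and hair cells, did not; 0 were called and 2 had an unadjusted p under 0.05 (limma), with summed signals of 163182 to 232370 in D257A, against 175119 to 248388 in WT cochleae. Other tissues differed between the groups: 5 of 8 middle ear and airway epithelium markers were called lower (sums 60759 to 106013 in D257A, against 175406 to 361466 in WT cochleae), as were 2 of 3 adipocyte markers, whose sums overlapped (20578 to 89696 in D257A, against 44059 to 87856 in WT cochleae), while 2 of 8 neutrophil markers were called higher (98965 to 297779 in D257A, against 70275 to 118740 in WT cochleae), as was 1 of 4 oligodendrocyte markers (22328 to 40410 in D257A, against 13377 to 20114 in WT cochleae). The part of these tissues in the signals of the 6 genes was not tested.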

How the data were processed

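The values used are linear array intensity, 1 per probe set and array, deposited by the authors. GCOS 1.3 is named in the submitters' processing notes; how background and scaling were set is not given in the sources used here. The mean after trimming 2% was 1494 to 1496 on every array and the median 551.7 to 649.3, so the deposited scaling was kept. No scan batch was analysed here. Precision is limited by the number of arrays. Of 45101 probe sets, 64 control probe sets, filled on D257A replicate 5 only, were left out. The platform table gave 34945 probe sets 1 gene, 932 several and 9160 none, and 34741 of the first were matched by gene ID, with 0 symbols changed.

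Signals were taken as log2(signal + 16), so fold changes understate those of dim genes. The share 0.5 of probe sets with the higher mean (22518, from about 577) was tested in limma 3.58.1 under R 4.3.3 (eBayes with trend after lmFit, two-sided, Benjamini-Hochberg at 0.05 over all tested probe sets), which gives every adjusted p called limma's. A gene is its brightest probe set. Members' differences come from the fit without the filter. Correlations used 100000 two-sided permutations within groups. Promoters are from RefSeq GRCm38.p6.

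The members and lists were chosen with earlier results of these data known. Named were the members, called list genes or otherwise the 2 with the smallest unadjusted p per list, the 3 genes most like each member, and neighbours in the ranking of rises. Deviations of same-numbered arrays correlated from -0.337 to 0.183, which does not show whether the numbers pair the samples. Alternatives were a pseudocount of 1 or 64, median centring, quantile normalization, no filter, the brightest 30%, array weights, a replicate block, the mean over probe sets and arrays left out. The fit was tested on simulated data.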

Additional observations from a re-analysis of the deposited data

Results flagged for a closer look

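Of 60 groups of 5 arrays examined among the members and the named list genes, 3 held an array set apart from the rest of its group by Dixon's criterion, which chance alone meets in about 1 in 20 groups. Lamp5 on WT replicate 3 read 476.7, with the next WT array at 260.3, and still lay below every D257A array. Pcmt1, the repair methyltransferase, read 8413.1 on D257A replicate 2, with the next D257A array at 6070.6. Eif2s3y, the Y-linked translation factor subunit, read 1031.1 on WT replicate 5, below the next WT array at 1400.0.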

How the results depend on the processing

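Each of the 6 members kept a positive log2 difference under a pseudocount of 1 or 64, median centring, quantile normalization, array weights, the replicate block, the mean over probe sets and each left-out array; the filter and the trend do not enter these values. Leaving out 1 array gave 2.51 to 2.83 for Lamp5, 2.01 to 2.32 for Mtm1, 1.90 to 2.58 for Psg28, 1.83 to 2.43 for Ntmt1, 1.34 to 1.97 for Nxph4 and 1.39 to 1.71 for Orly. The count of members with separate groups was 6 in each of those fits, and 5 under median centring and under quantile normalization. Of 513 probe sets called, the count was 322 among the brightest 30%, 1217 with array weights, 188 with a replicate block, 197 to 571 with 1 array left out, and 287 genes with the mean over probe sets. Calls higher in D257A were 45.4% of the total, 26.6% after median centring, which moved the median of all genes by -0.10, and 57.6% without D257A replicate 4. Among the brightest 30%, 59 list genes were tested without Cbln4, and 0 were called higher. The list genes called higher (1) stayed at 1 with any 1 array left out. Those called lower (2) became 4 after median centring, 1 after quantile normalization, 5 with array weights, 0 with the replicate block, 0 with the mean over probe sets, 4 without WT 3 and D257A 2, and 0 to 3 with 1 array left out. The replicate block gave Nlgn2 an adjusted p of 0.0521 and Speg 0.0580 (limma). The 5 correlated pairs became 0 with the mean over probe sets and 0 without both WT 3 and D257A 2, and 1 to 6 with 1 array left out; under the mean over probe sets r was -0.0563 for Mtm1 and Ntmt1 and -0.0654 for Ntmt1 and Orly, where the opposed Ntmt1 probe sets are averaged. The cause of the other changes was not tested. Low signal limits Lamp5, Nxph4, Cbln4 and the dim Orly probe sets, whose WT levels may lie near background. The same limit applies to Orly 1433283_s_at, with a WT mean of 551.4. It also applies to Psg28 and Orly 1433016_s_at on WT replicates 1, 2 and 5, which lay below 577.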
